A study of Homo sapiens with 10 samples.

Results

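The DNA replication and G1/S genes are 53 named genes whose products switch the cell cycle from G1 into S phase and copy the genome. They were taken by gene symbol, and all 53 were found among the 26256 genes of the table of untreated cells and among the 55736 genes of the table of the Nutlin-3a experiment. They fall into 8 roles, which are regulators, origin licensing, helicase activation, polymerases and primase, clamp with clamp loader and strand joining, nucleotide supply, chromatin assembly, and checkpoint and repair. All 53 passed the filter on low counts in both tables, so no gene was lost before testing.

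The cells were MCF10A, an immortalized but non-transformed human mammary epithelial line grown with epidermal growth factor, insulin, hydrocortisone, cholera toxin and horse serum. Gene counts from poly(A)-selected RNA were compared between 2 libraries of untreated MCF10A and 2 libraries of G12V cells. G12V cells are MCF10A cells that received HRas with the G12V change by lentiviral transduction, together with a GFP vector, and were selected with hygromycin. By the account of the study they first stopped growing and later resumed. In the second experiment parental MCF10A cells received 10 µM Nutlin-3a, with 3 libraries, or the vehicle DMSO, with 3 libraries, for 4 h. No RNA library was of G12V cells treated with Nutlin-3a.

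In G1 the E2F transcription factors are held by RB and its relatives. Cyclin D and cyclin E kinases phosphorylate RB, E2F is freed, and the genes for cyclin E, for origin licensing, for the replicative helicase and polymerases and for nucleotide synthesis are transcribed together. Nutlin-3a binds MDM2 and is known to raise CDKN1A, the inhibitor p21 of the cyclin kinases. Lower kinase activity keeps RB and its relatives in repressive complexes on E2F genes. Oncogenic Ras drives growth signalling and cyclin D, and in normal cells it can also provoke an arrest.

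The promoters are shown because E2F factors recognise a short word that many, but not all, of these genes hold. RefSeq promoter windows on GRCh38.p14, of 250 bases before to 50 bases after the start, were matched for 47 of the 53 genes. The promoters of E2F8, CCNE2, GINS4, MCM4, MCM5 and ATAD2 were not used here. The E2F words TTTCCCGC, TTTGGCGC, TTTCGCGC and TTTGCCGC were sought on both strands, and 26 of the 47 genes (55.3%) held at least 1 in any of their windows. Among all 27305 genes of the same table the share was 3.99%. Those genes were not matched to the 47 for expression or base composition, here or for the words below. The CCAAT box, the word of the factor NF-Y, was in 29 genes (61.7%), against 39.7% of all genes. The word TTTGAA, which is typical of genes of G2 and mitosis, was in 2 genes (4.26%), against 18.2%. A match is a description of the letters and not a bound site.

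The 250 bases before the start are printed for 4 genes that were lower after Nutlin-3a and hold an E2F word, and for PCNA and E2F7, which were not lower. E2F words and CCAAT boxes are in capitals and are read 5′ to 3′ on the gene's strand. GCGGGAAA and GCGCGAAA are the E2F words TTTCCCGC and TTTCGCGC on the opposite strand, and ATTGG is CCAAT on the opposite strand.
ZNF367 (chr9:96418371-96418620, minus strand): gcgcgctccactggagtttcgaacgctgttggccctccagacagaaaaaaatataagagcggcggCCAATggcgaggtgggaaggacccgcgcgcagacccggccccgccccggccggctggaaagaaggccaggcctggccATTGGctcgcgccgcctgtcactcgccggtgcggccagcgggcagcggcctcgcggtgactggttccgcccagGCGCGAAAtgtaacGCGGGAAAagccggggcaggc
E2F2 (chr1:23531234-23531483, minus strand): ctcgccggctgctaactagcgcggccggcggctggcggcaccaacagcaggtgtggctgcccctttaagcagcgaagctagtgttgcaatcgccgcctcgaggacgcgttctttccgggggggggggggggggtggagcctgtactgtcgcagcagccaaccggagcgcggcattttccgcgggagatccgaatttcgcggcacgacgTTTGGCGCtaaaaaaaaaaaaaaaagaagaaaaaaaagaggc
CDT1 (chr16:88803539-88803788, plus strand): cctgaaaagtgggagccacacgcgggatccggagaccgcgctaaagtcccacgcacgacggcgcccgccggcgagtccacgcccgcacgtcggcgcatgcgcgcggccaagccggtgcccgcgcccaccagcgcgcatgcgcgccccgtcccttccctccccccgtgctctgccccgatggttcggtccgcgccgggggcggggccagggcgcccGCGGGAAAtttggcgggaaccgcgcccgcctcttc
CDC25A (chr3:48188418-48188667, minus strand): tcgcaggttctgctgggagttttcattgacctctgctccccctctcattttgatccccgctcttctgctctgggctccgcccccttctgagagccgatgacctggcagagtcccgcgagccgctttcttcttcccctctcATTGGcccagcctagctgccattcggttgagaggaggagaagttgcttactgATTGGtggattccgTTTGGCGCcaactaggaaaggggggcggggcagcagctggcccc
PCNA (chr20:5126623-5126872, minus strand): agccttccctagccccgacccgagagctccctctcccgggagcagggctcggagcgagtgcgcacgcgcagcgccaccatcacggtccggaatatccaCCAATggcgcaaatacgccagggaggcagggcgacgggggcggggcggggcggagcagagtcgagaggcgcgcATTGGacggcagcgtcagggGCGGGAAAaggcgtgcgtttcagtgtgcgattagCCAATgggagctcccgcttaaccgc
E2F7 (chr12:77065570-77065819, minus strand): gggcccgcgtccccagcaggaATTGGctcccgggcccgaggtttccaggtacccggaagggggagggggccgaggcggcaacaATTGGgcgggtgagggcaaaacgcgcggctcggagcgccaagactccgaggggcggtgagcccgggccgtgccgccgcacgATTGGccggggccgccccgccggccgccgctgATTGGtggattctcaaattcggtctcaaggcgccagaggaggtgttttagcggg

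In ZNF367 the first bases of both E2F words lay 35 and 21 bases before the start, in CDT1 35, in E2F2 42, in CDC25A 44 and in PCNA 59. E2F7 had no E2F word in the window and 4 CCAAT boxes. Of the 10 genes called lower after Nutlin-3a below, 8 had a window and 5 of these (62.5%) held an E2F word. CCNE1, ORC1 and FBXO5 were also called lower, held none and are not printed. Of the 43 genes not called, 39 had a window and 21 of these (53.8%) held one. The word was found in both sets, and the difference in share was not tested.

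Total counts per library were between 21538593 and 23683975 in untreated cells and between 15453226 and 17378734 in the Nutlin-3a experiment, and every gene of the set had counts in every library. Levels are given as CPM, reads per 1e6 reads of the library after TMM scaling. No libraries were identical. HRAS checked the labels, with 72.6 and 65.9 CPM in MCF10A and 631 and 515 CPM in G12V cells. MCF10A carried the epithelial markers. In G12V cells all 5 of 5 epithelial markers were called lower, with a summed level of 944 to 1229 CPM against 6200 to 7680 CPM. Of 7 mesenchymal markers 4 were called higher, while 1 was lower without overlap, with a log2 fold change of -1.14, and was not called. Of all genes 5.95% were called lower and 5.01% higher. In G12V cells KRT14 was at 0.086 and 0.13 CPM and CDH1 at 0.43 and 0.54 CPM. Of the defining epithelial genes mainly KRT5, at 936 and 1220 CPM, was thus left. The 4 leukocyte markers summed to at most 1.68 CPM in any library, with PTPRC at 0 to 0.045 CPM. The endothelial markers summed to at most 32.2 CPM, in MCF10A replicate 2, of which KDR made 29.0 CPM. In these bulk libraries fewer cycling cells and less RNA per cell cannot be told apart.

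In untreated cells the libraries numbered 2 stood apart from those numbered 1 in the replication genes. Every one of the 53 genes was higher in replicate 1 than in replicate 2 in MCF10A, and again in G12V. Of all genes tested 50.5% were higher in replicate 1 in MCF10A, 44.7% in G12V and 32.4% in both. The median excess of replicate 1 was 1.84-fold in MCF10A, with log2 differences of 0.025 to 1.99, and 2.57-fold in G12V, with log2 differences of 0.46 to 2.53. The summed level was 4328 and 2339 CPM in the MCF10A libraries and 4414 and 1810 CPM in the G12V libraries. RRM2, the small subunit of ribonucleotide reductase, was at 298 and 93.1 CPM in MCF10A and at 370 and 121 CPM in G12V.

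Other lists moved with this split. Among 46 other replication genes 44 were higher in replicate 1 in both groups, and among 30 genes of G2 and mitosis 29 were. CDKN1A was at 151 and 201 CPM in MCF10A and at 270 and 727 CPM in G12V. The part of these genes in the split was not tested.

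**Figure D1:**
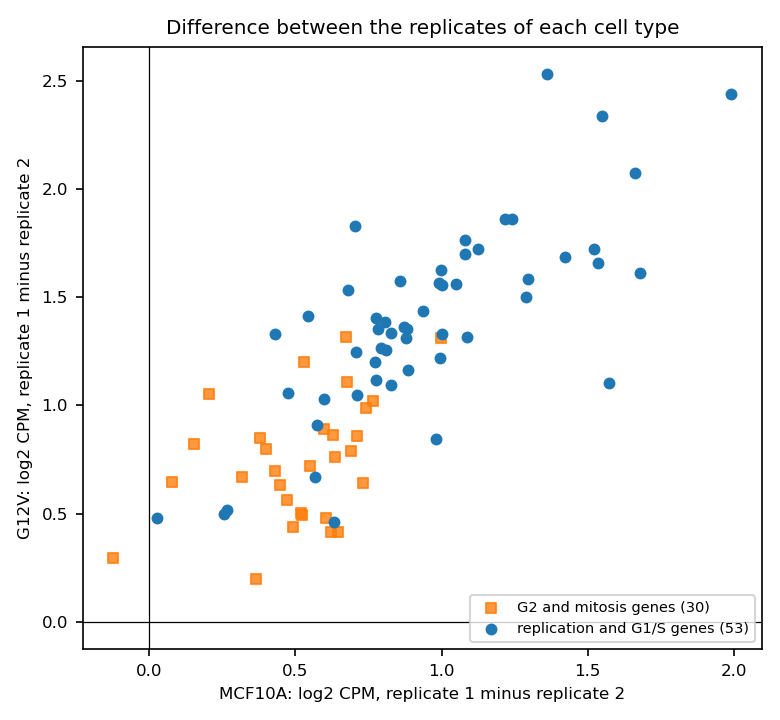
Log2 CPM of replicate 1 minus replicate 2 in MCF10A (x axis) and in G12V (y axis), with 1 point per gene. All 53 replication and G1/S genes (circles) lie above 0 on both axes, and most of the G2 and mitosis genes (squares) do too.

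**Figure D2:**
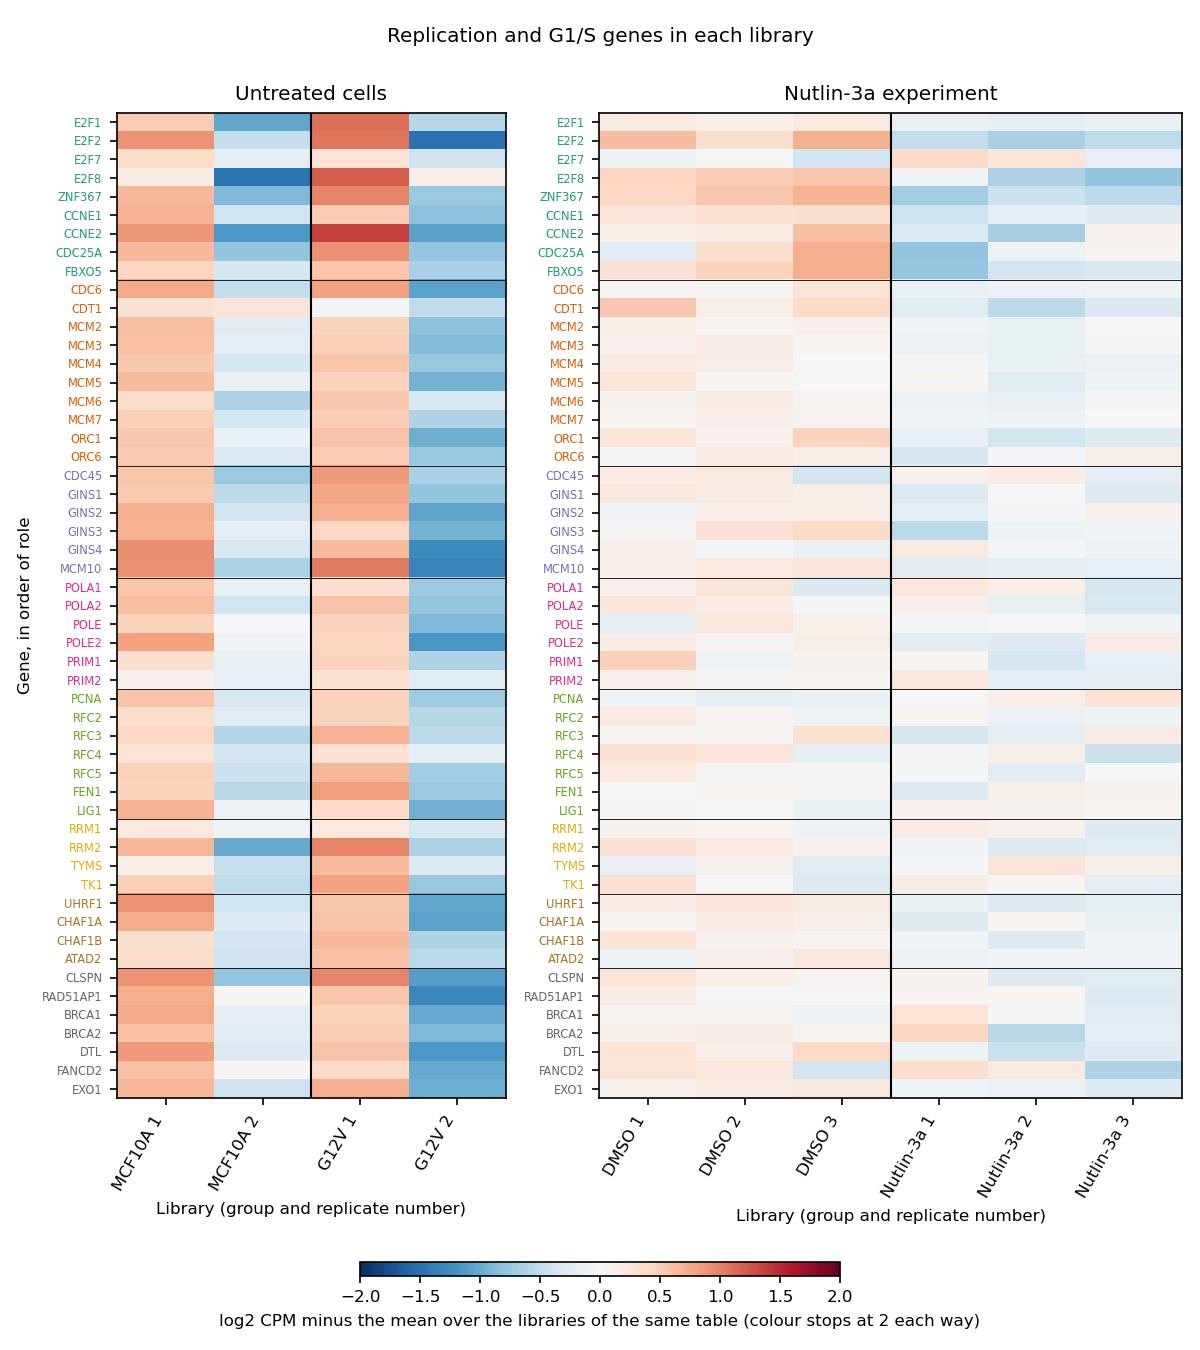
Log2 CPM of each gene in each library minus the gene's mean over the libraries of the same table, with colours that stop at 2 in either direction and genes in order of role. In untreated cells replicate 1 is mostly red and replicate 2 mostly blue in both cell types, with the MCF10A replicates of CDT1 nearly alike, and in the Nutlin-3a experiment the strongest contrast is in the top rows, the regulators.

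After 4 h of Nutlin-3a most of the replication genes had somewhat lower values than in DMSO. In the fit without the replicate number 1 gene passed the test. Those that passed with the number in the fit were mostly regulators of the G1/S switch and loaders of the helicase. Of the 53 genes 46 had a fitted log2 fold change below 0, beside 48.2% of all genes, and the median was -0.19, a change of -12.5%, beside 0.0066 over all genes tested. In edgeR's quasi-likelihood fit 1 gene, ZNF367, passed both thresholds (adjusted p below 0.05, log2 fold change beyond 0.5 in size) and was lower, where the background of genes called lower was 0.0148%. None was called higher, where the background was 0.155%. At an unadjusted p under 0.05, 18 were lower and 1 was higher, beside 1.83% and 1.60% of all genes, and DESeq2 and the exact test also called 0 higher.

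Replicate numbers were taken to pair the libraries of this experiment, from how same-numbered libraries varied together. With the number as a term of the fit (the replicate block) the same test called 10 genes lower and 0 higher. The shares of all genes were 0.517% and 0.702%, or 1.22% in either direction. On simulated tables the blocked fit made more false calls than its adjusted p states, and more than the fit without the block. The 10 were ZNF367, E2F2, FBXO5, E2F8, CDT1, CCNE1, CDC25A, CCNE2, DTL and ORC1. At the adjusted p alone 14 were lower, beside 0.902%, and 0 higher, beside 0.939%, with GINS3, MCM10, RRM2 and UHRF1 in addition. Without the block DESeq2 called 7 lower and the exact test 6, and no gene was called once any 1 of the 6 libraries was left out. With the block and without 1 pair, 10, 8 and 8 were called when pair 1, 2 and 3 was left out. The shares of all genes called by DESeq2, by the exact test and over the omissions were not taken. These counts thus have no background.

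By pair, 34 genes were lower in all 3 pairs, beside 17.7% of all genes, and 4 were higher in all 3, beside 15.0%. The medians of the pairs were -0.20, -0.24 and -0.23 on the log2 scale. In 24 genes every Nutlin-3a library was below every DMSO library, beside 4.38% of all genes. The reverse was seen in 2 genes, PCNA and LIG1, beside 3.70%, and in 1 gene with library totals alone as the scale. With 3 libraries a side the smallest p of an exact permutation test is 0.1, so calls on single genes came from the fit to the whole table. The summed level was 4444, 4437 and 4358 CPM in DMSO and 3974, 3883 and 3872 CPM after Nutlin-3a, and the groups did not overlap.

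The regulators had a median log2 fold change of -0.57, and 7 of the 9 were called lower with the block. ZNF367, a zinc finger protein gene on chromosome 9 (hg19, 99148225 to 99180669), was at 28.4, 30.7 and 34.2 CPM in DMSO and at 13.1, 15.8 and 14.8 CPM after Nutlin-3a. Its log2 fold change was -1.10 (SE 0.13, edgeR adjusted p = 0.0284, and 8.19e-05 with the block), and over the alternatives the adjusted p was 1.15e-08 to 0.165. Every treated library was well below every control.

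E2F2, an activator of the E2F family on chromosome 1 (hg19, 23832920 to 23857712), was at 16.5, 13.3 and 17.5 CPM in DMSO and at 7.64, 6.82 and 7.50 CPM after Nutlin-3a. The log2 fold change was -1.11 (SE 0.17, edgeR adjusted p = 0.0650, and 3.34e-04 with the block), with adjusted p from 1.17e-05 to 0.326 over the alternatives. FBXO5, also called EMI1, inhibits the anaphase-promoting complex and thereby lets S phase begin. It lies on chromosome 6 (hg19, 153291658 to 153304740) and was at 48.1, 53.8 and 65.7 CPM in DMSO and at 23.0, 30.2 and 32.1 CPM after Nutlin-3a, a log2 fold change of -0.97 (SE 0.17, edgeR adjusted p = 0.119, and 7.72e-05 with the block, from 2.16e-07 to 0.464 over the alternatives). In both genes the groups were well separated, and in FBXO5 the libraries ranked alike by number in both treatments, which the block takes up.

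E2F8, a repressor of the family, had low levels of 8.91, 9.27 and 9.57 CPM in DMSO and 6.28, 4.28 and 3.82 CPM after Nutlin-3a. Its log2 fold change was -0.95 (SE 0.22, edgeR adjusted p = 0.356, and 0.0128 with the block, up to 1.00 over the alternatives). CCNE1, cyclin E1, was at 28.4, 29.2 and 29.8 CPM in DMSO and at 18.0, 20.9 and 19.9 CPM after Nutlin-3a. Its log2 fold change was -0.57 (SE 0.11, edgeR adjusted p = 0.225, and 0.00848 with the block, up to 0.984). The groups of both genes were apart.

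CDC25A, the phosphatase that activates the cyclin E kinase, was at 52.2, 75.3 and 99.8 CPM in DMSO and at 34.7, 55.9 and 62.7 CPM after Nutlin-3a. Here the groups overlapped, and every treated library was below its own pair. The log2 fold change was -0.57 (SE 0.27, edgeR adjusted p = 1.00, and 0.00394 with the block). CCNE2, cyclin E2, was at 15.8, 16.1 and 22.1 CPM in DMSO and at 12.1, 9.18 and 15.6 CPM after Nutlin-3a, a log2 fold change of -0.55 (SE 0.23, edgeR adjusted p = 1.00, and 0.0323 with the block). INTS8 and NDUFAF6 overlap CCNE2 on the opposite strand, at 54.8 and 19.9 CPM against its own 15.2 CPM, and without a stated strand setting these reads cannot be told apart.

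Of the other regulators E2F1, the founding activator, was at 37.3, 35.7 and 37.0 CPM in DMSO and at 29.4, 28.4 and 29.6 CPM after Nutlin-3a. The libraries did not overlap, and the log2 fold change of -0.33 (SE 0.10) was not called (edgeR adjusted p = 0.773, and 0.0866 with the block, up to 1.00 over the alternatives). E2F7, a repressor of E2F genes, went against the other 8 in sign. It was at 84.9, 90.9 and 70.0 CPM in DMSO and at 119, 108 and 81.4 CPM after Nutlin-3a, higher in each pair but overlapping between groups, and was not called (log2 fold change 0.32, SE 0.16, edgeR adjusted p = 1.00, and 0.0891 with the block).

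**Figure D3:**
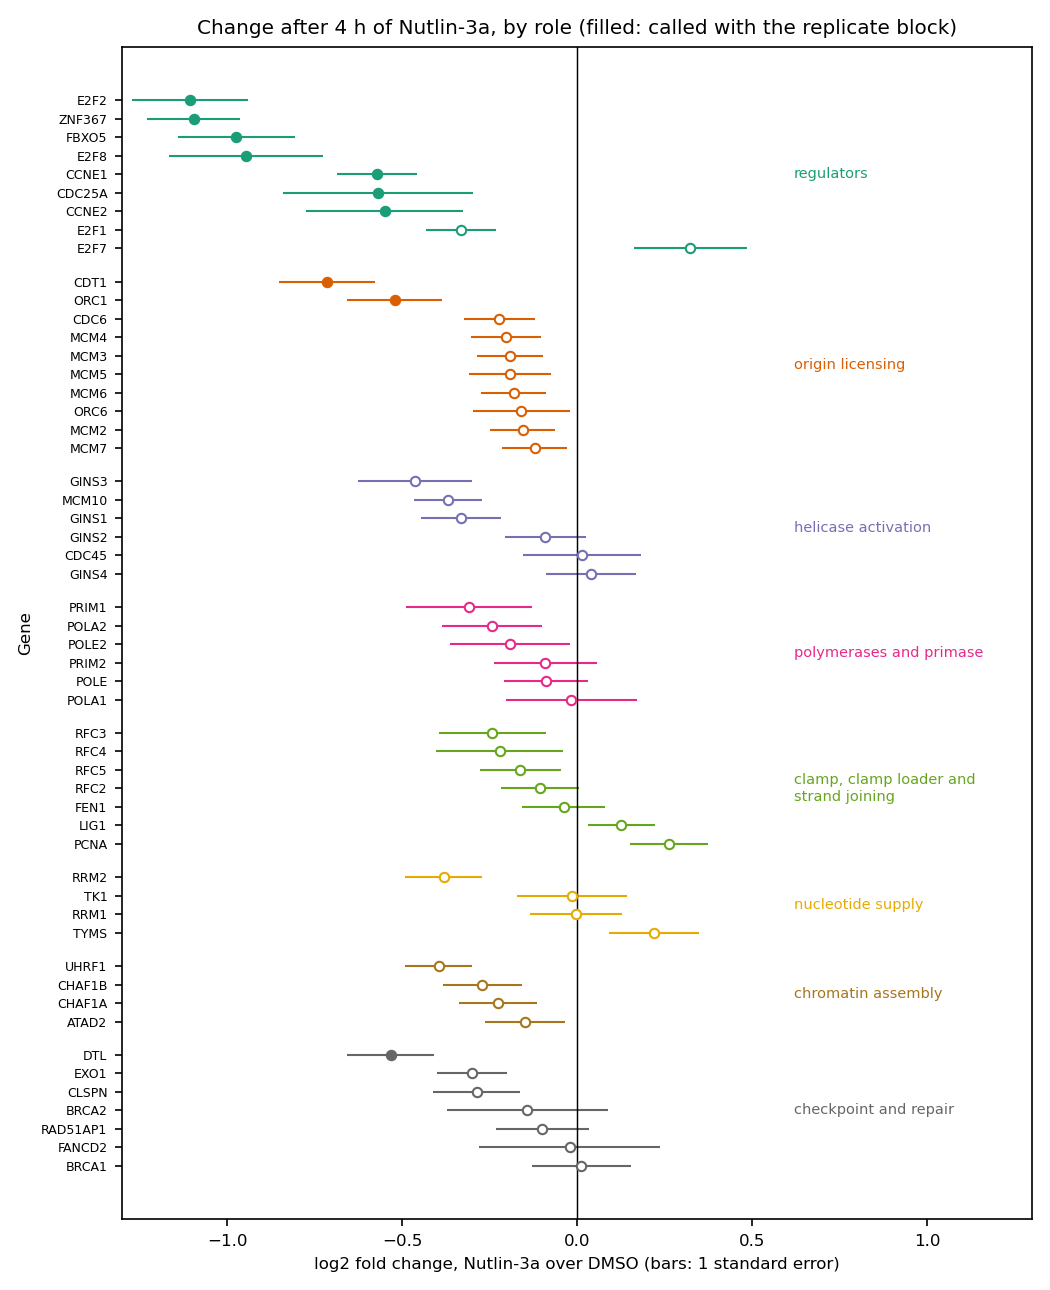
Fitted log2 fold change of Nutlin-3a over DMSO (x axis, bars of 1 standard error) for each of the 53 genes, grouped by role, with filled points for genes called with the replicate block. The 10 filled points lie at -0.52 or below, 7 of them among the regulators, and CDT1, ORC1 and DTL are the others.

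Origin licensing loads the MCM helicase on DNA in G1, with ORC, CDC6 and CDT1 as loaders. All 10 licensing genes had a log2 fold change below 0, with a median of -0.19, and 9 were lower in all 3 pairs. CDT1, on chromosome 16 (hg19, 88870186 to 88875666), was at 69.4, 52.6 and 63.1 CPM in DMSO and at 40.5, 33.2 and 39.1 CPM after Nutlin-3a. Its log2 fold change was -0.71 (SE 0.14, edgeR adjusted p = 0.202, and 4.57e-04 with the block, up to 0.795 over the alternatives). ORC1, the largest subunit of the origin recognition complex, was at 31.2, 27.9 and 36.1 CPM in DMSO and at 23.8, 20.4 and 22.2 CPM after Nutlin-3a, with a log2 fold change of -0.52 (SE 0.13, edgeR adjusted p = 0.502, and 0.0191 with the block, up to 1.00). Both loaders were lower in every treated library than in every control.

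The 6 genes of the MCM2 to MCM7 ring lay close together, between -0.20 for MCM4 and -0.12 for MCM7. MCM3 was at 200, 210 and 193 CPM in DMSO and at 174, 171 and 184 CPM after Nutlin-3a, without overlap (log2 fold change -0.19, SE 0.095). MCM4 was at 252, 242 and 219 CPM and at 215, 200 and 204 CPM, also without overlap. None of the 6 was called with or without the block. At an unadjusted p under 0.05 none passed without the block, and MCM3, MCM4, MCM5 and MCM6 did with it. CDC6 was at 103, 101 and 118 CPM in DMSO and at 90.6, 91.5 and 93.2 CPM after Nutlin-3a, a log2 fold change of -0.22 (SE 0.10), and was not called. In the count of MCM2, TPRA1 overlaps on the opposite strand.

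Helicase activation adds CDC45 and the GINS complex to the loaded ring. GINS3 was at 27.3, 32.9 and 35.5 CPM in DMSO and at 18.6, 25.1 and 25.8 CPM after Nutlin-3a, with a log2 fold change of -0.46 (SE 0.16, edgeR adjusted p = 1.00, and 0.0221 with the block). MCM10, which is needed to start the helicase, was at 58.3, 62.3 and 65.1 CPM in DMSO and at 46.9, 48.1 and 48.8 CPM after Nutlin-3a, with a log2 fold change of -0.37 (SE 0.097, edgeR adjusted p = 0.526, and 0.0358 with the block, up to 1.00). Both passed the adjusted p with the block but not the fold threshold. GINS1 stood at -0.33 (SE 0.11) with no overlap, while GINS2, CDC45 and GINS4 lay between -0.090 and 0.040.

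The polymerases and primase had 6 of 6 log2 fold changes below 0 with a median of -0.14, and none was called or free of overlap. PRIM1, the catalytic subunit of primase, had the lowest value, -0.31 (SE 0.18), and its annotated span overlaps that of NACA, which is on the same strand at 538 CPM against 22.5 CPM. The clamp PCNA holds polymerases on DNA. It lies on chromosome 20 (hg19, 5095599 to 5107268) and was at 261, 238 and 250 CPM in DMSO and at 270, 298 and 330 CPM after Nutlin-3a. All treated libraries were above all controls, yet PCNA was not called (log2 fold change 0.26, SE 0.11, edgeR adjusted p = 1.00, and 0.185 with the block). LIG1, which joins Okazaki fragments, was at 44.4, 45.5 and 41.6 CPM in DMSO and at 48.5, 48.2 and 46.9 CPM after Nutlin-3a, a log2 fold change of 0.13 (SE 0.096) that was not called. The clamp loader genes RFC2 to RFC5 lay between -0.24 and -0.11 and FEN1 at -0.039.

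In nucleotide supply RRM2 alone passed the adjusted p with the block. It was at 384, 363 and 336 CPM in DMSO and at 304, 261 and 267 CPM after Nutlin-3a, without overlap (log2 fold change -0.38, SE 0.11, edgeR adjusted p = 0.711, and 0.0172 with the block, up to 1.00 over the alternatives). RRM1, the large subunit, was at -0.0039 (SE 0.13) and TK1, thymidine kinase, at -0.015 (SE 0.16). TYMS, thymidylate synthase, was at 46.5, 55.3 and 44.1 CPM in DMSO and at 50.9, 62.6 and 56.5 CPM after Nutlin-3a, higher in each pair and not called (log2 fold change 0.22, SE 0.13). ENOSF1 overlaps TYMS on the opposite strand at 18.2 CPM. RRM2B, a counterpart of RRM2 and no member of the set, was called higher, from 143, 130 and 133 CPM to 337, 268 and 263 CPM.

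In chromatin assembly UHRF1, which keeps DNA methylation through S phase, was at 65.9, 71.2 and 66.9 CPM in DMSO and at 54.0, 49.0 and 52.1 CPM after Nutlin-3a. The libraries were clearly apart, and the log2 fold change was -0.40 (SE 0.097, edgeR adjusted p = 0.423, and 0.0323 with the block, up to 1.00). CHAF1B was at -0.27 (SE 0.11), CHAF1A at -0.23 (SE 0.11) and ATAD2 at -0.15 (SE 0.11). Among checkpoint and repair genes DTL, the receptor of the ubiquitin ligase that removes CDT1 in S phase, was at 155, 138 and 168 CPM in DMSO and at 119, 93.6 and 106 CPM after Nutlin-3a. Its log2 fold change was -0.53 (SE 0.12, edgeR adjusted p = 0.356, and 0.00432 with the block, up to 1.00). EXO1 and CLSPN were at -0.30 (SE 0.10) and -0.29 (SE 0.12), and were not called. RAD51AP1, BRCA1, BRCA2 and FANCD2 lay between -0.14 and 0.013, with all 4 overlapping between groups.

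**Figure D4:**
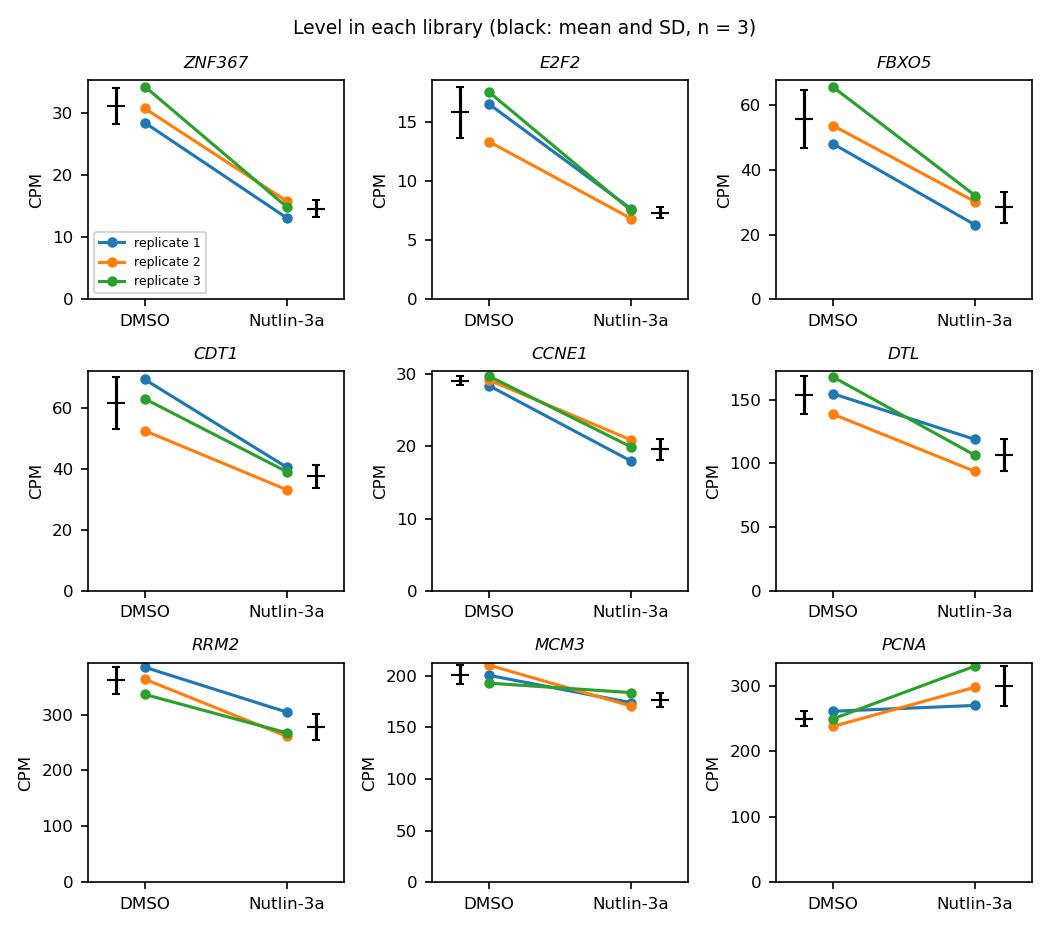
CPM of 9 genes in each library (y axes start at 0), with lines that join the DMSO and the Nutlin-3a library of the same replicate number, and black marks for the mean and SD of 3 libraries. The Nutlin-3a point is the lower one in all 3 pairs for ZNF367, E2F2, FBXO5, CDT1, CCNE1, DTL, RRM2 and MCM3, and the higher one in all 3 for PCNA.

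The upstream arm was read beside the set. CDKN1A was at 624, 673 and 666 CPM in DMSO and at 2712, 2688 and 3349 CPM after Nutlin-3a, with a log2 fold change of 2.16 (SE 0.13, edgeR adjusted p = 5.16e-04). MDM2 was at 122, 102 and 115 CPM in DMSO and at 814, 509 and 646 CPM after Nutlin-3a (log2 fold change 2.54, SE 0.18, edgeR adjusted p = 0.00133). Of 20 G1 regulators CDKN1A alone was called. RB1, CDK4, CDK6, CCND3, CCND1, E2F3 and E2F4 lay between -0.25 for E2F3 and 0.032 for CDK6, and none was called.

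Other genes of the cycle were read from lists of their own. Of 46 other replication genes 39 had log2 fold changes below 0, with a median of -0.12, and 26 were lower in all 3 pairs. Only BARD1, at -0.62 (SE 0.15), was called, and that with the block. Of 30 genes of G2 and mitosis all 30 were below 0, with a median of -0.30, and PLK1, CENPA, KIF23, TTK, CCNA2 and KIF20A were called lower with the block and none without it. PLK1, the mitotic kinase, was at 155, 176 and 175 CPM in DMSO and at 100, 115 and 93.6 CPM after Nutlin-3a. None of the 5 epithelial and 6 tested mesenchymal markers was called.

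**Figure D5:**
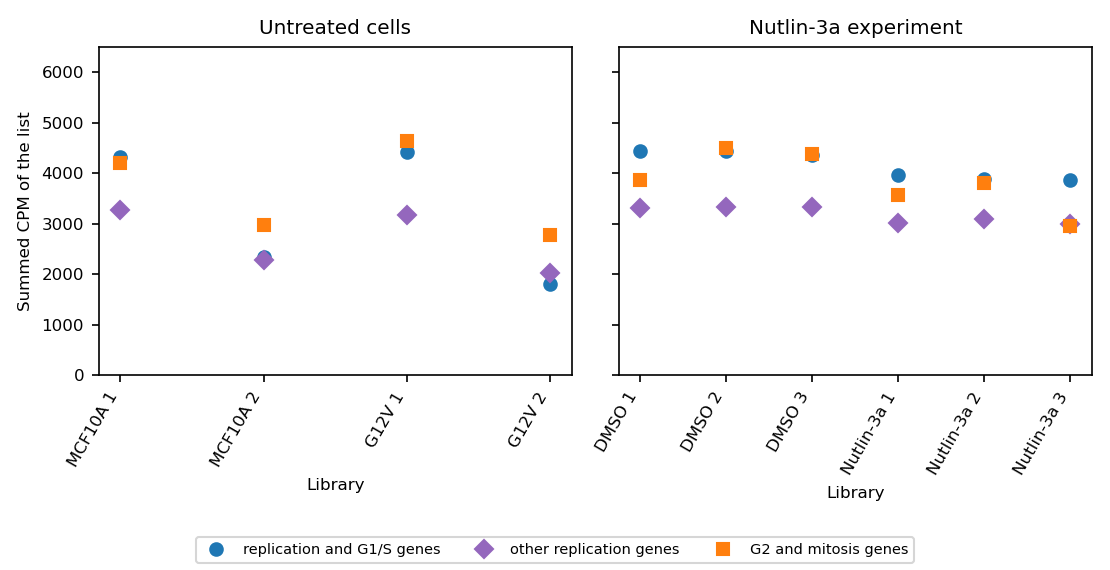
Summed CPM of 3 lists in each library (y axis from 0), untreated cells on the left and the Nutlin-3a experiment on the right. In untreated cells the replication and G1/S genes sum to 4328 and 4414 in the libraries numbered 1 and to 2339 and 1810 in those numbered 2, whereas after Nutlin-3a they sum to 3872 to 3974 against 4358 to 4444 in DMSO.

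Between G12V and MCF10A cells no replication gene passed the test without the replicate block. With the block 2 were called higher and 7 lower, beside 14.4% and 14.5% of all genes. In 51 of the 53 the replicates of both cell types differed by more than the log2 fold change fitted without the block. Without the block edgeR's quasi-likelihood test called 0 of the 53 genes, where 11.0% of all genes were called, 5.95% lower and 5.01% higher. At an unadjusted p under 0.05 CDT1 alone was lower and none was higher, beside 12.8% and 12.7% of all genes, and DESeq2 and edgeR's exact test each called 0. The log2 fold change was below 0 in 35 genes, beside 50.1% of all genes, and above 0 in 18, with a median of -0.11 beside -0.0011 over all genes. That sign depends on the libraries, since with G12V replicate 2 left out the median lay 0.36 above that of all genes, and with MCF10A replicate 1 left out 0.37 above. With G12V replicate 1 left out it was -0.91 relative to all genes, and with MCF10A replicate 2 left out it was -0.52.

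Library by library, G12V replicate 1 stood a median of 0.021 above MCF10A replicate 1 on the log2 scale, with 30 genes higher and 23 lower. Against MCF10A replicate 2 it was 0.89 above, with 52 genes higher. G12V replicate 2 was below MCF10A replicate 1 in all 53 genes, by a median log2 difference of -1.33, and below MCF10A replicate 2 in 42, by -0.42. The direction between the cell types thus changed with the pair of libraries. With 2 libraries a side the smallest p of an exact permutation test is 0.333. The groups did not overlap in 1 gene, CDT1, which was lower, beside 27.4% of all genes, and in 0 genes that were higher, beside 27.5%.

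CDT1 was at 79.4 and 78.1 CPM in MCF10A and at 63.6 and 45.6 CPM in G12V cells (log2 fold change -0.53, SE 0.22, edgeR adjusted p = 0.194, and 0.0157 to 0.615 over the alternatives). It also had the smallest difference between the MCF10A replicates. Among the regulators E2F8 had the largest fold change of the set, from 7.14 and 2.33 CPM to 14.9 and 6.87 CPM (log2 fold change 1.20, SE 0.62, edgeR adjusted p = 0.297, and 0.00227 to 0.724 over the alternatives). Without MCF10A replicate 1 its log2 fold change was 2.25, without G12V replicate 2 it was 1.65, and without G12V replicate 1 or MCF10A replicate 2 it was 0.54 or 0.60. The second G12V library was below the first MCF10A library, so the groups overlapped. E2F1 was at 29.6 and 10.1 CPM in MCF10A and at 44.6 and 14.1 CPM in G12V cells (log2 fold change 0.56, SE 0.67), and E2F2 was at 20.9 and 8.06 CPM and at 23.4 and 3.97 CPM (log2 fold change -0.079, SE 0.82). Regulators had a median of 0.21 and nucleotide supply of 0.24, while origin licensing was at -0.21, helicase activation at -0.11, chromatin assembly at -0.14 and the clamp group at 0.056.

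The polymerases and primase had a median of -0.23, with POLE2, the second subunit of the leading-strand polymerase, lowest at -0.58 (SE 0.58). POLE2 was at 12 and 6.61 CPM in MCF10A and at 9.36 and 3.08 CPM in G12V cells, with overlap. Origin licensing had 9 of 10 genes below 0. Checkpoint and repair genes were the only role with all members, 7 of 7, below 0, at a median of -0.44, with CLSPN at -0.0076. Among them RAD51AP1 was at -0.51 (SE 0.60), FANCD2 at -0.47 (SE 0.47), BRCA1 at -0.46 (SE 0.52), DTL at -0.44 (SE 0.60) and BRCA2 at -0.26 (SE 0.50). All of these SEs were as large as the difference or nearly so, and none was called without the block. With the replicate block FANCD2, BRCA1 and DTL were called lower (edgeR adjusted p = 0.0362, 0.0238 and 0.0176).

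Of the remaining genes with the lowest unadjusted p, GINS4, LIG1, GINS3, UHRF1, MCM5, CHAF1A, POLA1, POLE, MCM2, MCM3, CCNE1 and E2F7 lay between -0.49 and -0.16 on the log2 scale, and MCM6, RRM2 and TYMS between 0.22 and 0.40. LIG1 was at 65.1 and 36.7 CPM in MCF10A and at 52.0 and 20.6 CPM in G12V cells (log2 fold change -0.49, SE 0.48). TYMS was at 48.7 and 32.6 CPM and at 69.9 and 37.2 CPM (log2 fold change 0.40, SE 0.36). In both the first library of each group was higher than the second, and the groups overlapped. The annotated span of DTL overlaps that of INTS7 on the opposite strand, at 87.5 CPM against 80.8 CPM, and that of RFC4 overlaps EIF4A2, at 208 CPM against 35.4 CPM.

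Upstream of the set CDKN1A had a log2 fold change of 1.50 (SE 0.47, edgeR adjusted p = 0.106) with no overlap, and CDKN1B, the inhibitor p27, one of -1.05 (SE 0.33, edgeR adjusted p = 0.108), from 45.4 and 71.4 CPM to 21.4 and 34.9 CPM. CCND1, cyclin D1, was at 397 and 181 CPM in MCF10A and at 394 and 314 CPM in G12V cells, with overlap. RB1, CDK4, CDK6, CCND3, E2F3 and E2F4 lay between -0.46 for CCND3 and 0.45 for E2F3, MDM2 was at -0.040 (SE 0.21), and none was called. The median was 0.034 over 20 G1 regulators, -0.16 over 46 other replication genes and 0.033 over 30 genes of G2 and mitosis. No gene of these lists was called by edgeR's quasi-likelihood test without the block. At an unadjusted p under 0.05 the lists had 1, 2 and 0 genes lower and 2, 0 and 1 higher.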

How the data were processed

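RNA-seq libraries of untreated MCF10A and G12V cells (2 replicates each) and of MCF10A cells given Nutlin-3a or DMSO (3 replicates each) were grouped by their labels. Per the labels the libraries were made from poly(A) RNA with the NEBNext Ultra RNA kit, and raw gene counts, made by the authors with TopHat (build hg19) and HTSeq, were deposited in 1 table per experiment. The annotation, the strand setting and the treatment of overlapping genes are not given in the sources used here, so reads of overlapping genes on opposite strands cannot be told apart. Each table was fitted on its own, since the annotations differ.

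The whole table of counts was filtered by filterByExpr, which left 14376 and 13529 genes, given TMM factors and fitted with the quasi-likelihood model of edgeR 4.0.16 (limma 3.58.1, R 4.3.3) with Benjamini-Hochberg adjustment over all genes tested. Calls use the thresholds of the study, an adjusted p below 0.05 with a log2 fold change beyond 0.5 in size. The prior count of fitted log2 fold changes was 0.125, and log2 differences between single libraries were taken after 0.1 CPM was added. SE was obtained by dividing the size of the log2 fold change by the root of the F statistic. The step was tested on simulated data drawn with several seeds. Every recovered change had the direction it was simulated with. The pooled share of false calls was above the adjusted p threshold in all settings but the unblocked Nutlin-3a fit with deviations shared within pairs. It was higher with the replicate block than without it in each setting, and highest in the simulated G12V tables. Blocked calls are thus more liberal than their adjusted p states. Any deviations simulated within pairs were smaller than the median replicate difference of the 53 genes in untreated cells (log2 0.88 in MCF10A and 1.36 in G12V). The share of false calls at that size was not measured. Lists and roles are described by counts and medians, with no test over a list. The members and lists were chosen with earlier results of these data known. Replicates are called biological by the labels, and p-values measure the spread between these libraries only. Counting precision is limited by depth, and PCR copies were not told apart by molecular identifiers.

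In the Nutlin-3a experiment same-numbered libraries deviated together from their group means (r of 0.62, 0.60 and 0.64). Centring on the group means then pushes differently numbered ones below 0 on average, so their values (r of -0.47 to -0.19) are no separate evidence. From the same-numbered values the numbers were taken to pair the libraries. The adjusted p with the replicate block is given for each gene whose call it changes. Alternatives were edgeR's exact test, DESeq2 1.42.0, other scaling (relative log expression, upper quartile, library totals), no filter, a filter asking for over 1 CPM in 2 libraries, the adjusted p alone, the block, and each library left out. Genes named are those called with or without the block, filled up to 24 by the lowest unadjusted p, the largest fold change of each role, and HRAS, CDKN1A, MDM2, CCND1, CCND3, CDK4, CDK6, RB1, E2F3 and E2F4 upstream. A part of the upstream genes, 1 list and 1 promoter word are not reported here. Other members and list genes named with values were chosen after their values were seen. Promoter windows came from RefSeq on GRCh38.p14, matched by symbol, with the most upstream window shown. Python 3.11.15, numpy 2.4.6, pandas 2.3.3 and matplotlib 3.10.9 were used.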

Additional observations from a re-analysis of the deposited data

How the results depend on the processing

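In the Nutlin-3a experiment the count of genes called lower, 1 as fitted, was 7 with DESeq2, 6 with edgeR's exact test, 7 with no filter, 10 with the replicate block and 14 with the block and the adjusted p alone, the last chosen after seeing the data. Over the omissions of a library or, with the block, of a pair (also chosen after seeing the data) it ranged from 0 to 10, with 8 in the blocked fit without pair 2 or pair 3. The count of genes higher without overlap, 2 as fitted, was 1 with library totals alone and ranged from 2 to 4 over the omissions. Apart from the fits with all libraries in edgeR's quasi-likelihood test, with the filter as stated, the shares of all genes were not taken. The counts under the other alternatives thus have no background. The median, the count of genes lower without overlap and the direction of all 25 named genes held under every alternative run, and the median relative to all genes ranged from -0.21 to -0.19 over the omissions. Of the called genes ZNF367 lost its call with each omitted library.

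The labels of G12V and MCF10A cells share only 2 replicate numbers and do not state whether these pair the libraries. Deviations of same-numbered libraries correlated at 0.49, and 2 against 2 libraries force the others to -0.49. With the replicate block 2 genes were called higher, E2F1 and E2F8, and 7 lower, CDT1, GINS4, LIG1, UHRF1, BRCA1, DTL and FANCD2, beside 14.4% and 14.5% of all genes. The edgeR adjusted p with the block was 0.0288 for E2F1 and 0.00227 for E2F8. It was 0.0157 for CDT1, 0.0452 for GINS4, 0.0200 for LIG1 and 0.0163 for UHRF1. The blocked fit of these cells had the largest share of false calls on simulated tables. Any deviation shared within pairs there was smaller than the median replicate difference here. Over the omissions the genes called lower ranged from 0 to 13, those lower without overlap from 1 to 42 and those higher without overlap from 0 to 30. The median relative to all genes ranged from -0.91 to 0.37. The log2 fold changes ranged from -0.50 to 1.57 for E2F1, -0.53 to 0.19 for E2F7, -1.07 to 0.43 for CCNE1, -1.28 to 0.10 for GINS3, -1.69 to 0.32 for GINS4, -1.07 to 0.19 for MCM2, -1.13 to 0.23 for MCM3, -1.25 to 0.15 for MCM5, -0.26 to 0.83 for MCM6, -0.69 to 1.44 for RRM2, -0.13 to 0.78 for TYMS, -0.98 to 0.079 for POLA1, -1.13 to 0.20 for POLE, -1.60 to 0.0056 for POLE2, -1.31 to 0.031 for LIG1, -1.44 to 0.39 for UHRF1, -1.40 to 0.26 for CHAF1A, -1.71 to 0.13 for RAD51AP1, -1.36 to 0.12 for BRCA1, -1.12 to 0.27 for BRCA2, -1.55 to 0.27 for DTL and -1.35 to 0.068 for FANCD2. The cause was not tested. An omission leaves 1 library in an arm, which is assumed to vary like the other group.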
